A study of Homo sapiens with 9 samples.

Results

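The costimulatory members of the TNF superfamily examined here were 3 ligand genes, TNFSF4, CD40LG and CD70, and 3 receptor genes, TNFRSF4, TNFRSF18 and TNFRSF9. A region was assigned to a gene when it overlapped the gene body or the 50 kb on either side of its transcription start site (TSS) in the GENCODE annotation of GRCh37. By that rule 39 regions belonged to the 6 genes, out of 40703 in all on chromosomes 1 to 22, X and Y, and all 6 had at least 1. TNFRSF4 and TNFRSF18 are neighbours and shared the same 4 regions, so these are not independent of each other. A region is a stretch covered by peaks of 1 or more lists, where peaks that overlap or touch were joined.

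The regions come from FAIRE-seq (formaldehyde-assisted isolation of regulatory elements), which recovers DNA that is poorly cross-linked to protein and is enriched for nucleosome-depleted chromatin. The cells were Jurkat, clone E6-1, a human T cell leukaemia line grown from 1 clone, and not primary T cells. The labels describe 9 samples, of which 4 have a peak list used here and 5 were not analysed here. The 4 lists are labelled as NS (non-stimulated) cells with DMSO, SW (stimulus withdrawal) cells with DMSO, NS cells with rottlerin and SW cells with rottlerin. Rottlerin is an inhibitor of protein kinase C, used at 15 µM for 1 h before any stimulation, and DMSO is its vehicle. SW cells, per their labels, were stimulated with PMA and ionomycin for 4 h and then rested for 1 day without the stimulus; the methods state a shorter stimulation. PMA activates protein kinase C and ionomycin raises cytosolic calcium, which together imitate signalling from the T cell receptor. All 4 lists were made against total input DNA, and each holds 1 library.

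The identity of the lists is in doubt. Joining all peaks of the 4 lists gave 40731 regions, of which 28 lay outside the autosomes, X and Y. These are the same totals that the study's methods give for its 4 DMSO samples (NS, ST or stimulated, SW, and RS or re-stimulated), whereas the labels assign 2 of the 4 lists to rottlerin. If the lists are of those DMSO samples, 2 of them are of ST and RS cells and the rottlerin labels are wrong. The totals do not tell which list is of which cells. Lists are therefore named by their labels throughout, and differences between them are given as differences between labelled lists, not as effects of withdrawal or of rottlerin. The list labelled NS DMSO serves as the reference by its label alone, which was not checked. All counts of regions without its peak, and all ratios to it, rest on that label.

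The lists differ in length. The list labelled NS DMSO held 18977 peaks, that labelled SW DMSO 20132, that labelled NS rottlerin 23835 and that labelled SW rottlerin 30409. The lists do not carry the read depth. Absence of a peak therefore means that none was called in that library, and a longer list has more chances to hold one. Of 9 T cell markers, between 5 and 7 had a peak within 1 kb of the TSS in each list, CD3D, CD3E and CD28 in all 4 lists and CD2 in none. None of 5 B cell markers and none of 5 myeloid markers had one in any list. With 1 library for each label there is no spread between replicates, and no test is given.

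TNF superfamily ligands are mostly trimeric proteins on the cell surface, and their receptors recruit TRAF adaptors that feed the NF-κB and MAP kinase pathways. On T cells the costimulatory members add to the signal of the antigen receptor and of CD28, and several appear on the surface after activation. TNFSF4 encodes OX40 ligand and TNFRSF4 its receptor OX40, TNFRSF18 encodes GITR, TNFRSF9 encodes CD137, CD40LG encodes the CD40 ligand through which helper T cells license B cells and dendritic cells, and CD70 encodes the ligand of CD27.

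The DNA under 6 of the regions is shown because these regions carry the contrasts between lists described below: the regions at or nearest the start sites of TNFSF4, CD40LG and TNFRSF18, the distal CD40LG region found in both lists labelled SW, the CD70 region with the highest enrichment among all members, and the TNFRSF9 region that was present in every list and higher in both lists labelled SW. Sequences are the plus strand of GRCh37, at most the central 300 bases of a region. The start region of CD40LG stops at the base before the TSS. Capitals mark exact matches, on either strand, to the AP-1 core (TGANTCA), an NFAT core (GGAAA), an ETS core (GGAAGT) and a RUNX core (TGTGGT). An NF-κB core (GGNNTTNCC) and a GATA core (AGATAA) were searched too and had no match in these stretches.
TNFSF4, chr1:173175949-173176138: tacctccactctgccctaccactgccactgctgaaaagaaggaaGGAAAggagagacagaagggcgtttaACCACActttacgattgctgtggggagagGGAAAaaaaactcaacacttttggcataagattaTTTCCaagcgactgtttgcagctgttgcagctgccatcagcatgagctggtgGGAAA
CD40LG before the TSS, chrX:135730172-135730316: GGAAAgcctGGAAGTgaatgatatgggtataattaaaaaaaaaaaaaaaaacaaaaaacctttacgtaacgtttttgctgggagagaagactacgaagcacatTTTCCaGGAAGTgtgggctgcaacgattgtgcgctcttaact
CD40LG 24.6 kb upstream, chrX:135705593-135705859: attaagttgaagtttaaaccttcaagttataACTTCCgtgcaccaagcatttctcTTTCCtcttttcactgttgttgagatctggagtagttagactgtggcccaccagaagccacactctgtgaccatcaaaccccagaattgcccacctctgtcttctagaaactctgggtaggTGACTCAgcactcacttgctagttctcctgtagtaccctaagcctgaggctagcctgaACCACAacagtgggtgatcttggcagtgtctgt
CD70 37.8 kb upstream, chr19:6641747-6642046: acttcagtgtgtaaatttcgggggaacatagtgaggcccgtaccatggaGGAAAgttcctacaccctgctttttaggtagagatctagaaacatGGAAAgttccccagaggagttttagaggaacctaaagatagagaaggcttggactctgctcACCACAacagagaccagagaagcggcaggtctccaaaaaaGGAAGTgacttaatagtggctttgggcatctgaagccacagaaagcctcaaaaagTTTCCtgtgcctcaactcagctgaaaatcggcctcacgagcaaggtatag
TNFRSF18 1.63 kb upstream, chr1:1143502-1143700: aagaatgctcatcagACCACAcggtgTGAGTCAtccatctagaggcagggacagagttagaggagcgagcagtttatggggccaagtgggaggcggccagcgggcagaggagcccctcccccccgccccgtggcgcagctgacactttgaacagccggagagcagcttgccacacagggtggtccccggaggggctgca
TNFRSF9 6.08 kb upstream, chr1:8009159-8009458: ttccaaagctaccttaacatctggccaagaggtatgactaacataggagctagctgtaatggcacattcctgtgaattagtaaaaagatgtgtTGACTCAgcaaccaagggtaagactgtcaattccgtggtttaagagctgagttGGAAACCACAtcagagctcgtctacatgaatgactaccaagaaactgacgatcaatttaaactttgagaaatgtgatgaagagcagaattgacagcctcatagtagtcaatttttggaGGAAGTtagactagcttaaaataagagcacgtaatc

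Most of the members' regions had no peak in the list labelled NS DMSO. This was so for 23 of 39 regions (59.0%), beside 53.5% of all merged regions. A peak in all 4 lists was found for 6 of 39 (15.4%), beside 26.6% of all regions, and a peak in the NS DMSO list alone for 3 of 39 (7.69%), beside 7.83%. The remaining 7 regions had the NS DMSO peak and a peak in 1 or 2 other lists. Of the 39 regions, 15 (38.5%) were found in exactly 1 list, beside 38.8% of all regions. The share without an NS DMSO peak and the share found in 1 list were thus near the background. The count without an NS DMSO peak leans on the longest list: without the list labelled SW rottlerin it was 12 of 28 (42.9%, beside 43.3% of all regions). With the same number of highest-scoring peaks taken from every list it was 14 of 30 (46.7%, beside 41.5%). Without the list labelled SW DMSO, 10 of 38 regions (26.3%, beside 32.1%) had a peak in all lists left.

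**Figure D1:**
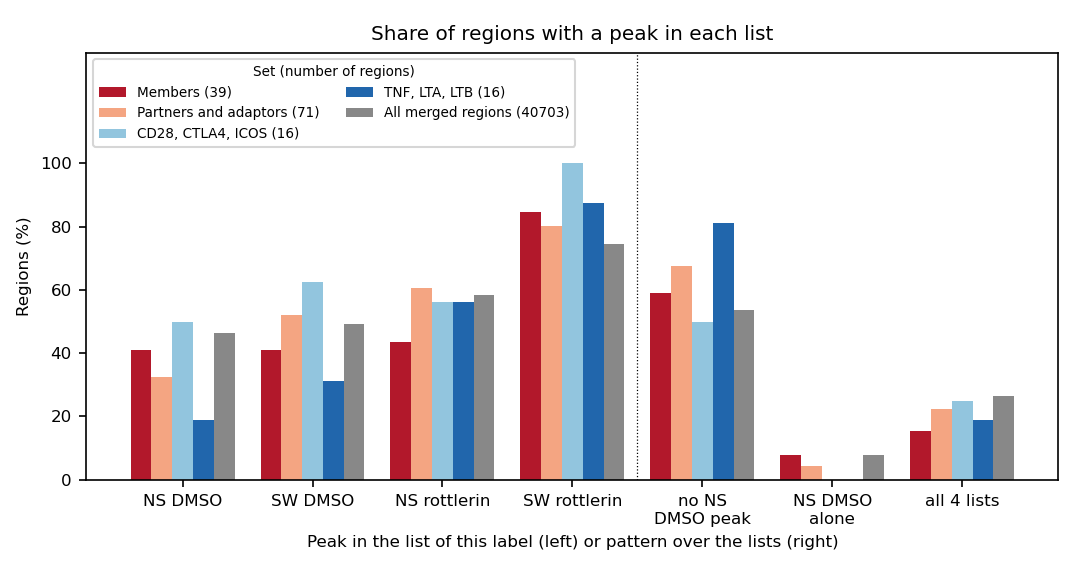
Bars give the percentage of regions with a peak in the list of each label (left of the dotted line) and with 3 patterns over the lists (right), for the members, the comparison gene sets and all merged regions. The list labelled SW rottlerin, the longest, covered 84.6% of the 39 member regions, against 41.0% for each list labelled DMSO.

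The list labelled SW rottlerin held a peak in 33 of the 39 regions (84.6%, beside 74.5% of all regions). The list labelled NS rottlerin held 17 (43.6%, beside 58.4%), and the lists labelled NS DMSO and SW DMSO held 16 each (41.0%, beside 46.5% and 49.3%). Of the 23 regions without an NS DMSO peak, 12 were in 1 other list, 10 in 2 and 1 in all 3. Over all merged regions, 21783 lacked an NS DMSO peak, and the counts were 12607, 6293 and 2883 in the same order. A peak in the SW rottlerin list alone was found for 10 of the 39 (25.6%), beside 18.2% of all regions. A pattern picked out after its values were seen was a peak in both lists labelled SW and in neither labelled NS. It held for 6 of the 39 regions (15.4%), beside 6.26% of all regions: 4 at CD40LG, 1 at TNFRSF9 and 1 at TNFRSF4 and TNFRSF18.

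**Figure D2:**
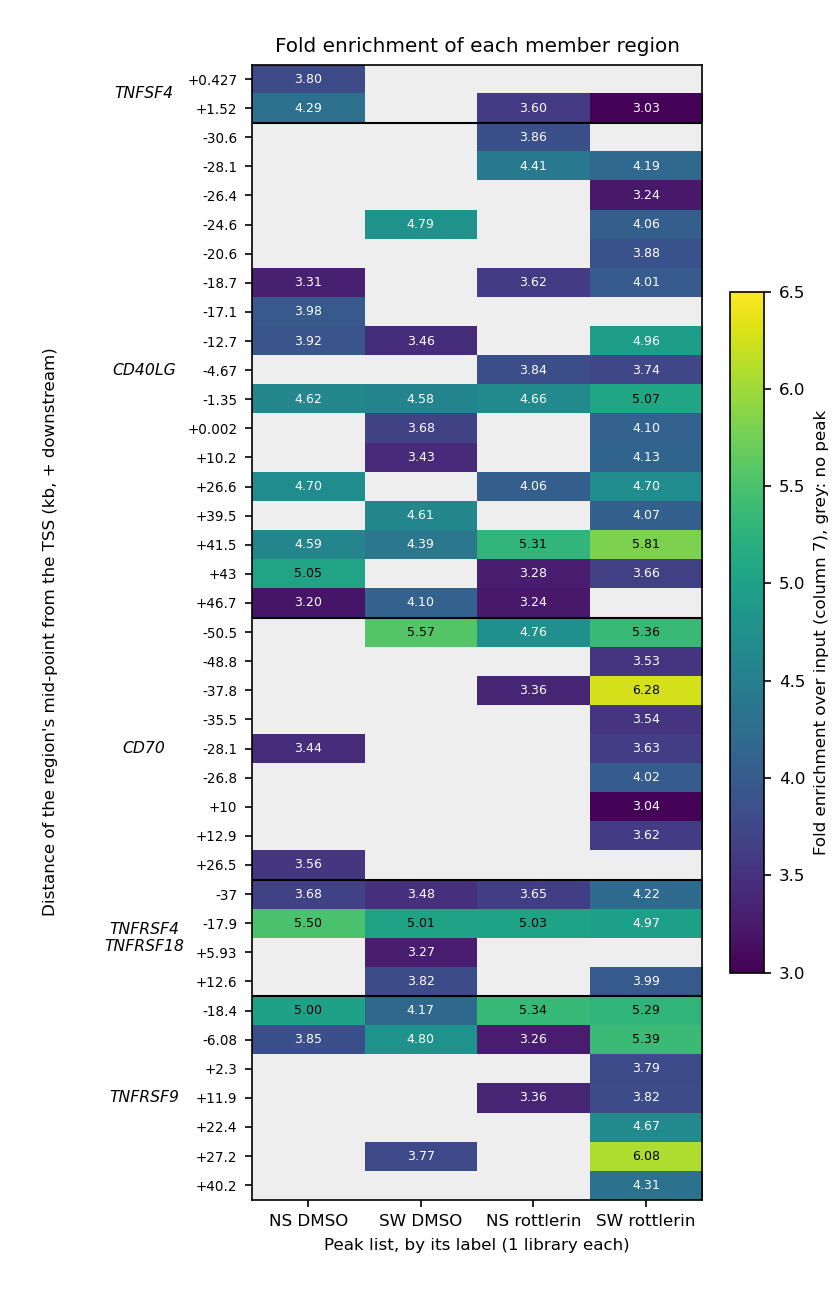
Each row is 1 of the 39 regions, named by the distance of its mid-point from the TSS of its gene (from that of TNFRSF4 for the 4 regions shared with TNFRSF18), and each column is 1 labelled list. Colour and number give the fold enrichment over total input, grey means no peak. The column labelled SW rottlerin is the fullest, and the highest values are 6.28 at CD70 and 6.08 at TNFRSF9.

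Among the ligands, TNFSF4 (chr1:173152870-173176470, minus strand) had only 2 regions, and both had a peak in the list labelled NS DMSO. OX40 ligand is mainly known from antigen-presenting cells. The region nearest the start, chr1:173175949-173176138, lay 0.427 kb inside the gene in an intron and had a fold enrichment of 3.80 in the list labelled NS DMSO and no peak in the other 3. The second, chr1:173174671-173175226 at 1.52 kb, held the annotated starts of shorter transcripts. Its fold enrichment was 4.29 in the list labelled NS DMSO, 3.60 in that labelled NS rottlerin and 3.03 in that labelled SW rottlerin, with no peak in that labelled SW DMSO. TNFSF4 was thus the only member with no region lacking an NS DMSO peak and the only one without any peak in a list, the one labelled SW DMSO. The sequence of the region nearest the start carries 4 matches to the NFAT core and 1 to the RUNX core, and the central 300 bp of the second, wider region carry 3 to the RUNX core and none to the NFAT core.

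CD40LG (chrX:135730317-135742549, plus strand) had 17 regions, more than 99.5% of the 20110 coding genes by the same window. The median coding gene had 3. Of the 17, 8 had a peak in the list labelled NS DMSO, 8 in that labelled SW DMSO, 9 in that labelled NS rottlerin and 14 in that labelled SW rottlerin. All 17 had a member gene's TSS, that of CD40LG, as the nearest coding TSS, but 5 of them, from 26.6 to 46.7 kb downstream, lay inside introns of the neighbouring gene ARHGEF6.

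A peak over the start site of CD40LG was called only in the lists labelled SW. The region chrX:135730172-135730466 spans the TSS, with its mid-point 0.002 kb from it. It had a fold enrichment of 3.68 in the list labelled SW DMSO and 4.10 in that labelled SW rottlerin, and no peak in either list labelled NS. These are not strong peaks: 34.4% of the SW DMSO peaks and 52.6% of the SW rottlerin peaks did not exceed these values. The nearest NS DMSO peak lay 1.13 kb away, in the region 1.35 kb upstream (chrX:135728797-135729139). That upstream region had a peak in every list, at 4.62 in NS DMSO, 4.58 in SW DMSO, 4.66 in NS rottlerin and 5.07 in SW rottlerin. The stretch before the TSS holds 2 matches to the NFAT core and 2 to the ETS core, and no match to the AP-1 core.

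Further regions of CD40LG shared the pattern of the start site. The region 24.6 kb upstream (chrX:135705593-135705859) was at 4.79 in SW DMSO and 4.06 in SW rottlerin. The intronic region 10.2 kb inside the gene (chrX:135740358-135740657) was at 3.43 and 4.13 in the same order, and the ARHGEF6 intron region 39.5 kb downstream (chrX:135769615-135769977) at 4.61 and 4.07. None of the 3 had a peak in a list labelled NS. The value was higher in the SW DMSO list at 2 of these 4 regions and higher in the SW rottlerin list at the other 2.

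Other upstream regions of CD40LG were held by the rottlerin-labelled lists. The region 28.1 kb upstream was at 4.41 in NS rottlerin and 4.19 in SW rottlerin, and that 4.67 kb upstream at 3.84 and 3.74. The region 30.6 kb upstream was in the NS rottlerin list alone, at 3.86. Those 26.4 and 20.6 kb upstream were in the SW rottlerin list alone, at 3.24 and 3.88. The 3.24 is the weakest call among the members, with a q-value of 0.0621. From 30.6 to 20.6 kb upstream the gene thus had 5 regions, and none of them had an NS DMSO peak.

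The rest of the CD40LG regions had an NS DMSO peak. The region 17.1 kb upstream was in that list alone, at 3.98. The region 12.7 kb upstream was at 3.92 in NS DMSO, 3.46 in SW DMSO and 4.96 in SW rottlerin, and that 18.7 kb upstream at 3.31 in NS DMSO, 3.62 in NS rottlerin and 4.01 in SW rottlerin. Within ARHGEF6, the region 41.5 kb downstream (chrX:135771482-135772073) was present in all lists, at 4.59 in NS DMSO, 4.39 in SW DMSO, 5.31 in NS rottlerin and 5.81 in SW rottlerin. The lists labelled rottlerin were the higher ones there. The neighbour at 43.0 kb went the other way, at 5.05 in NS DMSO against 3.28 in NS rottlerin and 3.66 in SW rottlerin, with no peak in SW DMSO. The regions at 26.6 kb (4.70 in NS DMSO, 4.06 in NS rottlerin and 4.70 in SW rottlerin) and 46.7 kb (3.20 in NS DMSO, 4.10 in SW DMSO and 3.24 in NS rottlerin) completed the set.

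**Figure D3:**
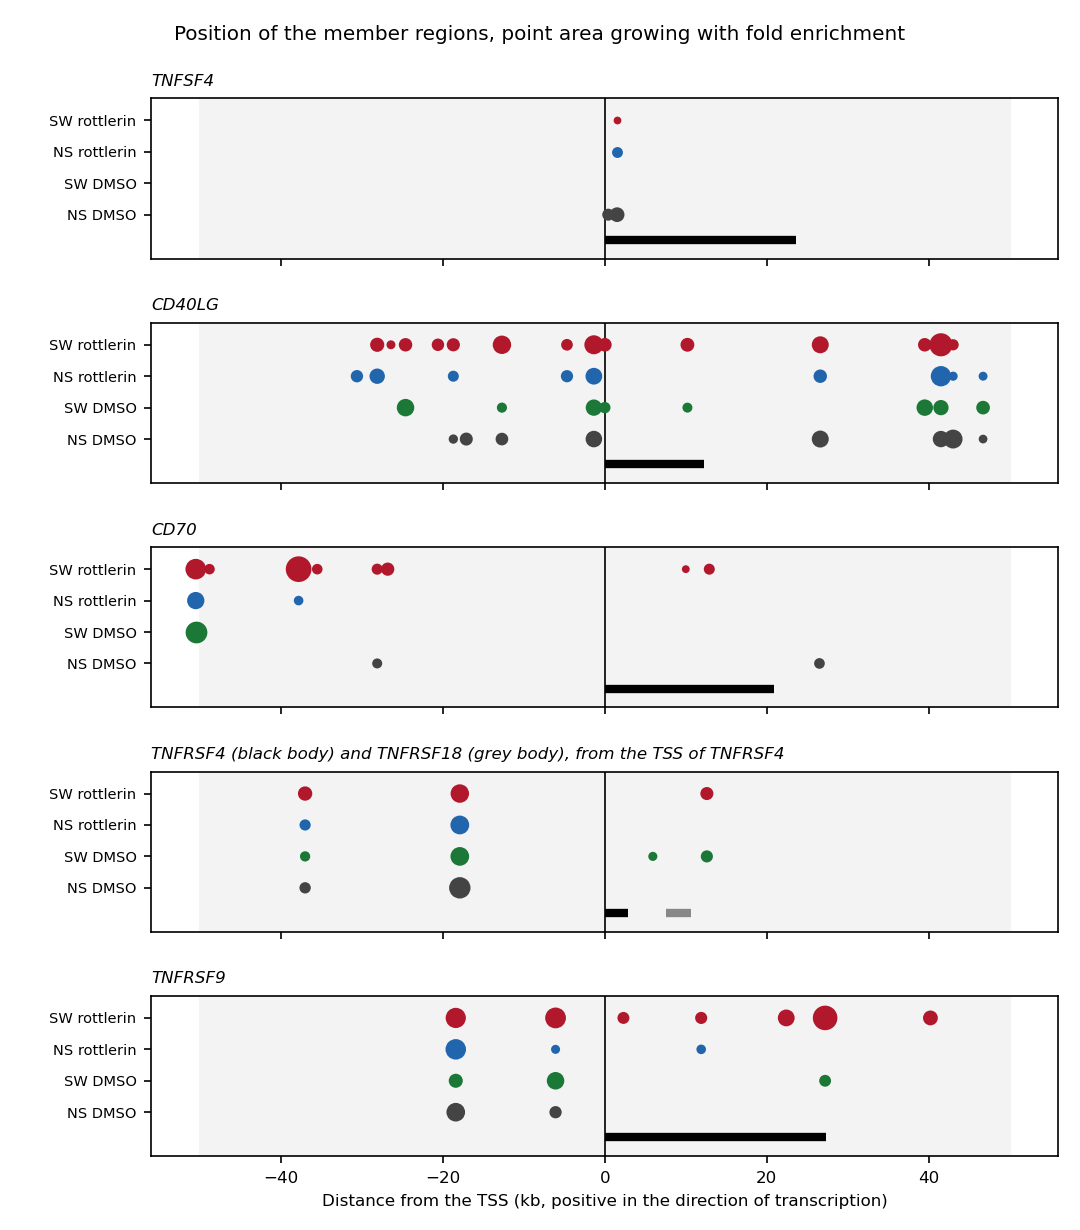
Points mark the mid-points of regions with a peak in each labelled list, by distance from the TSS in kb, with a larger area for a higher fold enrichment. Black bars are gene bodies (grey for TNFRSF18) and the shading marks the 50 kb window. At CD40LG the point at the TSS appears only in the 2 lists labelled SW, and at CD70 8 of the 9 regions have a point in the list labelled SW rottlerin. That list, the longest, held a peak in 74.5% of all regions.

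CD70 (chr19:6583194-6604114, minus strand) had 9 regions, and 8 of them had a peak in the list labelled SW rottlerin. That list, the longest, held a peak in 74.5% of all regions. The lists labelled NS DMSO, NS rottlerin and SW DMSO held 2, 2 and 1. The SW rottlerin list alone held 5 of the 9, where 18.2% of all regions had that pattern. Those 48.8, 35.5 and 26.8 kb upstream were at 3.53, 3.54 and 4.02, and the intronic ones 10.0 and 12.9 kb inside the gene at 3.04 and 3.62. The last of these covers annotated starts of shorter CD70 transcripts. The regions 48.8 and 35.5 kb upstream had the TSS of TNFSF14 as their nearest coding TSS, at 17.7 and 30.9 kb. No region came within 9.78 kb of the main start site in any list.

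The highest fold enrichment of any member region lay 37.8 kb upstream of CD70. This intergenic region (chr19:6641671-6642122) was at 6.28 in the list labelled SW rottlerin, a value that 94.0% of that list's peaks did not exceed. In the list labelled NS rottlerin it was at 3.36, a value that 19.4% of that list's peaks did not exceed. Neither list labelled DMSO had a peak there, and the nearest NS DMSO peak was 9.35 kb away. Its centre, printed above, holds 3 matches to the NFAT core, 1 to the ETS core and 1 to the RUNX core. The nearest coding TSS, at 28.7 kb, is that of TNFSF14, which encodes the ligand LIGHT, so the region is not nearest to CD70.

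The farthest CD70 region overlapped the edge of the window. It was 1492 bp wide (chr19:6653844-6655335), with its mid-point 50.5 kb upstream of CD70 and 16.0 kb from the TSS of TNFSF14. It was at 5.57 in SW DMSO, 4.76 in NS rottlerin and 5.36 in SW rottlerin, with no NS DMSO peak. It was the only member region found in all 3 other lists without one in NS DMSO, and 7.08% of all regions had that pattern. The next region outward, 58.1 kb upstream and outside the window, had the same pattern at 3.20, 3.23 and 5.10. Of the 2 CD70 regions with an NS DMSO peak, that 28.1 kb upstream was at 3.44 in NS DMSO and 3.63 in SW rottlerin. The other, 26.5 kb downstream, was at 3.56 in NS DMSO alone. These values lay within the range of the CD70 regions found in SW rottlerin alone, 3.04 to 4.02.

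Among the receptors, TNFRSF4 (chr1:1146706-1149533) and TNFRSF18 (chr1:1138888-1141972), both on the minus strand, shared 4 regions. Here the list labelled SW DMSO was the fullest: it had a peak in all 4, against 3 in SW rottlerin and 2 in each list labelled NS. No other member had its largest number of regions in that list. The region chr1:1143502-1143700, intergenic and 1.63 kb upstream of TNFRSF18, was in the list labelled SW DMSO alone at 3.27. Only 16.1% of that list's peaks did not exceed this value. No other member region was found in that list alone (2.56% of member regions, beside 4.32% of all regions). The region 1.63 kb upstream holds 1 match to the AP-1 core and 1 to the RUNX core. The region chr1:1136779-1137115, past the end of TNFRSF18 and 5.03 kb from its TSS, was at 3.82 in SW DMSO and 3.99 in SW rottlerin, with no peak in a list labelled NS. The nearest NS DMSO peak was 23.6 kb from the former and 30.2 kb from the latter.

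The other 2 regions of this locus had a peak in all lists and lay nearer to other genes. The region chr1:1167290-1167628 is 0.048 kb from the TSS of SDF4, 17.9 kb upstream of TNFRSF4 and 25.5 kb upstream of TNFRSF18. It was at 5.50 in NS DMSO, 5.01 in SW DMSO, 5.03 in NS rottlerin and 4.97 in SW rottlerin. It is rich in CpG, with 49 in the central 300 bp, where the median member region has 4. The region chr1:1186381-1186591, in an exon of a long non-coding RNA and 4.38 kb from the TSS of C1QTNF12, was at 3.68, 3.48, 3.65 and 4.22 in the same order. The regions that some lists lacked in this locus were the pair nearest TNFRSF18.

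TNFRSF9 (chr1:7975931-8003225, minus strand), the gene of CD137, had 7 regions. All 7 had a peak in the list labelled SW rottlerin, beside 74.5% of all regions. NS DMSO had 2, and SW DMSO and NS rottlerin had 3 each. Within the gene body 4 regions lay, at 2.3, 11.9, 22.4 and 27.2 kb from the TSS, and none had an NS DMSO peak. The strongest was the one at 27.2 kb (chr1:7975883-7976226), over annotated UTR at the end of the gene. It was at 6.08 in SW rottlerin and 3.77 in SW DMSO, with no peak in the lists labelled NS, and 92.5% of the SW rottlerin peaks did not exceed its value there. The one at 22.4 kb was at 4.67 and the one at 2.3 kb at 3.79, both in SW rottlerin alone and both over sequence that is UTR in at least 1 transcript. The intronic one at 11.9 kb was at 3.36 in NS rottlerin and 3.82 in SW rottlerin. The region 40.2 kb downstream was in SW rottlerin alone, at 4.31.

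Upstream of TNFRSF9 both regions had a peak in every list. The intergenic region 6.08 kb upstream (chr1:8009127-8009490), whose nearest coding TSS is that of PARK7 at 5.04 kb, was at 3.85 in NS DMSO, 4.80 in SW DMSO, 3.26 in NS rottlerin and 5.39 in SW rottlerin. Both lists labelled SW were above both lists labelled NS there. The SW rottlerin value was 1.40 times that in NS DMSO. Its centre holds an AP-1 match and an NFAT match that overlaps a RUNX match by a single base, besides an ETS match. The region 18.4 kb upstream (chr1:8021423-8021829), in an intron of PARK7, was at 5.00 in NS DMSO, 4.17 in SW DMSO, 5.34 in NS rottlerin and 5.29 in SW rottlerin, without such a split.

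Where a region had a peak in the reference list and in another, most fold enrichments were within 1.5-fold, among members and all such regions alike. Only regions called in both lists enter these ratios, so values too low to be called are left out. For SW DMSO over NS DMSO, 8 member regions had both peaks, the ratios ran from 0.834 to 1.28, and 0 were at least 1.5-fold higher (1.67% of all 12550 regions with both) or at least 1.5-fold lower (2.18%). For NS rottlerin over NS DMSO, 11 had both, the ratios ran from 0.65 to 1.16, and 0 were at least 1.5-fold higher (3.19% of 13702) and 1 at least 1.5-fold lower (1.38%), the CD40LG region at 43.0 kb. For SW rottlerin over NS DMSO, 12 had both, the ratios ran from 0.706 to 1.40, and 0 passed in either direction (4.5% and 1.54% of 14037). The median ratios of the members were 0.95, 0.991 and 1.08, beside 0.98, 1.04 and 1.06 over all regions with both. These ratios cover pairs with the list labelled NS DMSO alone. Other pairs of lists differed by more at single regions, as at the CD70 region 37.8 kb upstream (3.36 in NS rottlerin and 6.28 in SW rottlerin) and the TNFRSF9 region at 27.2 kb (3.77 in SW DMSO and 6.08 in SW rottlerin). The median fold enrichment of the members' peaks in a list ran from 3.84 to 4.14, beside 4.03 to 4.09 over all regions.

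The window fixes how far a member region can lie from a start site, so positions are given as a description. Of the 39, 22 were intergenic, 12 intronic, 4 over annotated UTR and 1 in an exon of a non-coding gene. Within 1 kb of a coding TSS lay 3 (7.69%), beside 18.6% of all regions: those at CD40LG, TNFSF4 and SDF4. A member was the gene of the nearest coding TSS for 31 of the 39. The median GC content over the central 300 bp was 46.3% among members and among all regions, with a range of 33.3 to 79.7% among members.

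Matches to the AP-1 core were found mostly in regions without an NS DMSO peak. The core is bound by Fos and Jun factors, which PMA signalling is known to activate. In the central 300 bp, 11 of 39 member regions held it (28.2%, beside 17.9% of all regions in the same window). Of the 23 without an NS DMSO peak 10 did (43.5%, beside 25.8% of all such regions), and of the 16 with one 1 did (6.25%, beside 8.83%), the region 6.08 kb upstream of TNFRSF9. The same direction holds over all regions, so the split is not particular to the members. The 10 were 4 CD40LG regions between 28.1 and 20.6 kb upstream, 2 of CD70, 2 of TNFRSF9 and the 2 nearest TNFRSF18.

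The other motifs were searched in the same way. The NFAT core, bound by the calcium-dependent factors that ionomycin activates, was in 30 regions (76.9%, beside 71.0%), the NF-κB core in 10 (25.6%, beside 15.5%), the RUNX core in 15 (38.5%, beside 32.8%), the ETS core in 10 (25.6%, beside 27.6%) and the GATA core in 7 (17.9%, beside 21.0%). The GATA core was in 13.0% of the member regions without an NS DMSO peak and 25.0% of those with one, where all regions had 24.8% and 16.6%. The NF-κB core was in 30.4% and 18.8% of the members in the same order (all regions 15.5% and 15.4%), and the ETS core in 30.4% and 18.8% (28.7% and 26.3%). The NFAT core was in 82.6% and 68.8% (74.9% and 66.5%), and the RUNX core in 34.8% and 43.8% (32.2% and 33.5%). With 23 and 16 regions, these shares rest on few matches, 3 and 4 for GATA. The NFAT core is short, and most windows of 300 bp hold it. The ETS core begins with the same letters as the NFAT core, and their matches were counted separately. A match is a description of the letters, not evidence of a bound factor.

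The members' partners, further ligand and receptor pairs of the family and the TRAF adaptors that relay their signals ranged from no region to 10. A region in the window was found at 13 of 14 of them, beside 85.7% of coding genes, and a region without an NS DMSO peak at 12 of 14, beside 68.1% of coding genes. For the members these counts were 6 of 6 and 5 of 6, the exception being TNFSF4. The 14 genes had 71 distinct regions, 7 of them also counted for a member, in each case CD70. Of the 71, 48 (67.6%) had no NS DMSO peak, beside 53.5% of all regions. Within receptor and ligand pairs the numbers were uneven. CD27, the receptor of CD70, had 9 regions, 4 of them in all 4 lists, where CD70 itself had none in all 4. CD40, the receptor of CD40 ligand and known mainly from B cells and other antigen-presenting cells, had 1, present in all lists. TNFSF9, the ligand of CD137, had 5 regions and TNFSF18, the ligand of GITR, had none in any list. TNFSF14, encoded beside CD70, had 10 with 9 lacking an NS DMSO peak. Its window takes in every upstream region of CD70, so its counts and those of CD70 are not independent. The ligand and receptor of the CD30 pair, TNFSF8 and TNFRSF8, had 9 and 8, of which 8 and 7 lacked one. TNFRSF14 had 4, TNFSF15 had 2 and TNFRSF25 had 3. Among the adaptors TRAF1 had 10, TRAF2 had 4, and TRAF3 and TRAF5 had 3 each.

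**Figure D4:**
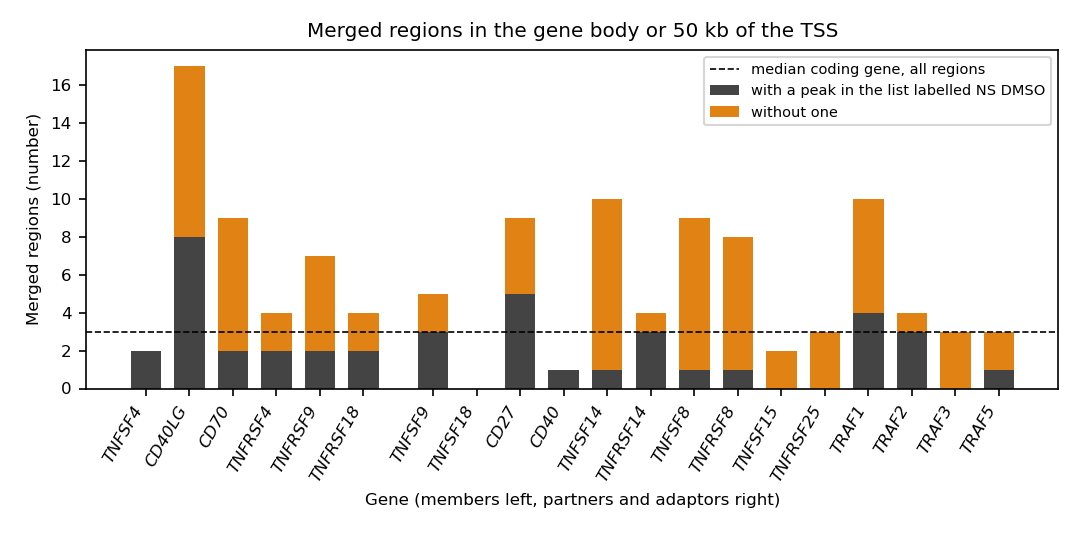
Bars give the number of merged regions at each member (left) and each partner or adaptor (right), split by whether the list labelled NS DMSO had a peak. The dashed line is the median of 3 over coding genes. CD40LG stands highest with 17, and both regions at TNFSF4 had an NS DMSO peak.

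Other costimulatory and cytokine loci gave a scale for these counts. CD28, CTLA4 and ICOS, which lie in 1 cluster, had 16 regions between them, 8 of them (50.0%) without an NS DMSO peak, and all 16 had a peak in the list labelled SW rottlerin. The TNF, LTA and LTB locus had 16 regions, shared by the 3 genes, and 13 (81.2%) had no NS DMSO peak. The members, at 59.0%, lay between these. Single members ran from 0 of 2 at TNFSF4, through 2 of 4 at TNFRSF4 and TNFRSF18 and 9 of 17 at CD40LG, to 5 of 7 at TNFRSF9 and 7 of 9 at CD70. Counts of regions without an NS DMSO peak exceeded those of 99.1% of coding genes at CD40LG, 98.0% at CD70, 93.9% at TNFRSF9 and 59.3% at TNFRSF4 and TNFRSF18. Counts of all regions exceeded those of 99.5%, 94.6%, 86.9% and 59.4% of coding genes in the same order. These ranks use every peak of lists that differ in length. With the same number of highest-scoring peaks from every list, CD40LG had 14 regions, CD70 had 5 and TNFRSF9 had 5. The share without an NS DMSO peak at CD40LG was 52.9%, beside 53.5% of all regions.

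The likeness of whole loci was taken from the fold enrichments summed over a gene's regions in each list, as the distance of log2(sum + 1) over the 4 lists. The sums for CD70 were 7.0 in NS DMSO, 5.57 in SW DMSO, 8.12 in NS rottlerin and 33.0 in SW rottlerin, and those for TNFRSF9 were 8.85, 12.7, 12.0 and 33.3 in the same order. For CD40LG they were 33.4, 33.1, 36.3 and 59.6. The genes most like CD70 were PAX5 (distance 0.423) and MTOR (0.684), and PAX5 was the only coding gene within 0.5 of it. The most like TNFRSF9 were RFC5 (0.312) and SPEN (0.348), and the most like CD40LG was STAG2 (0.221). For TNFSF4 they were PRSS38 (0.116) and SERP2 (0.122), and for the TNFRSF4 and TNFRSF18 locus POU2F1 (0.176) and SPINK4 (0.178), where 186 coding genes lay within 0.5. Likeness of this kind rests on 4 values, which share the length of each list.

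At the edges of the window, the regions just inside and just outside were mixed. Just inside, the CD40LG region at 46.7 kb had a peak in 3 lists and the CD70 region at 50.5 kb in 3. Just outside, CD40LG had a region 61.6 kb upstream in all 4 lists (4.43 in NS DMSO) and 1 at 62.4 kb in SW rottlerin alone, at 5.98. The nearest outside TNFSF4 lay 90.8 kb upstream, in SW rottlerin alone at 3.29, and those nearest outside TNFRSF9 were 112 kb downstream and 210 kb upstream.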

How the data were processed

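FAIRE-seq of Jurkat cells was used as 4 deposited peak lists with 1 library each, grouped by their labels. According to the methods and processing notes, the authors trimmed reads with CutAdapt, aligned them with Bowtie2 on Hg19, dropped duplicate reads in Picard and then ran MACS2 with its Broad option against total input at a q-value limit of 0.05. Versions are not given in the sources used here. Each deposited line gives a position, a score (the −log10 q multiplied by 10 and cut to a whole number), the fold enrichment over input (a ratio, column 7), −log10 p and −log10 q. The highest q-value in a deposited list was between 0.0946 and 0.0983, and 163 to 427 peaks of a list lay above 0.05 and were kept. No read counts were used, so depth and precision are unknown.

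Peaks of all 4 lists were joined where they overlapped or touched (Python 3.11.15, pandas 2.3.3, numpy 2.4.6), and a region took the highest fold enrichment of a list. No member region had several peaks of 1 list. Regions were assigned with GENCODE release 44 on GRCh37, where no peak passed a chromosome's end, and annotated by their mid-points, UTR before coding exon, intron and intergenic. Sequences were read with pysam 0.24.0 and samtools 1.23.1 and figures drawn with matplotlib 3.10.9. Joining, window and motif steps were tested on simulated data. No test between lists was made. Over all regions, those with a peak pattern, or with a fold enrichment 1.5-fold apart, were counted as background.

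Every region of the 6 members was named, partners, adaptors and comparison genes by counts, and the 2 most like coding genes over 100 kb away by the distance of log2(sum + 1), of which 1 is not reported here. Members and lists were chosen with earlier results of these data known. The alternatives changed the peaks kept, joining, window, TSS, motif window, fold limit, scaling and lists used.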

Additional observations from a re-analysis of the deposited data

Results flagged for a closer look

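Every list had a peak in 6 member regions, and 3 of these had SW to NS ratios of fold enrichment on opposite sides of 1 under the DMSO and the rottlerin labels. At the region 37.0 kb upstream of TNFRSF4 the ratio was 0.944 for SW DMSO over NS DMSO and 1.16 for SW rottlerin over NS rottlerin. At the region 1.35 kb upstream of CD40LG the ratios were 0.993 and 1.09, and at the CD40LG region 41.5 kb downstream they were 0.956 and 1.09, in the same order. With 1 library for each label the difference was not tested. All of these ratios lie within 1.5-fold of 1, and which cells the lists describe is in doubt, so no meaning is attached to their direction.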

How the results depend on the processing

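No paired analysis was possible because each label has 1 library. Among the 39 member regions the count without an NS DMSO peak was 23. With each list reduced to its 18977 highest-scoring peaks it was 14 of 30 (46.7%, beside 41.5% of all regions), with 5 in the NS DMSO list alone (16.7%, beside 13.3%). With only the peaks above the median rank of each list, 14 member regions were left, 11 without an NS DMSO peak (78.6%, beside 52.1%), 3 in all 4 lists (21.4%, beside 29.1%) and 0 in NS DMSO alone (beside 6.7%). A window of 10 kb left 15 regions, 11 of them without an NS DMSO peak (73.3%, beside 53.5% of all regions). Of these 15, 2 were in all lists (13.3%, beside 26.6%) and 1 in NS DMSO alone (6.67%, beside 7.83%). A window of 100 kb gave 11 of 55 in all 4 lists (beside 26.6% of all regions). Leaving out 1 list in turn gave 28 to 38 member regions, 12 to 22 without an NS DMSO peak (all regions 43.3 to 51.4%), 7 to 10 in all lists left (31.3 to 36.5%) and 3 to 4 in NS DMSO alone (9.53 to 11.6%); the 12 came without SW rottlerin and the 10 without SW DMSO. Motif counts in the central 200 bp were 6 for ETS (15.4%, beside 21.6% of all regions) and 4 for GATA (10.3%, beside 15.4%), and the share over all regions is lower in this window too. At a lower fold limit, a ratio of 5 to 4, 1 of 8 regions passed for SW DMSO over NS DMSO (8.37% of all regions with both), 3 of 12 for SW rottlerin over it (18.3%) and 2 of 12 under it (7.2%). At 2-fold, 0 of 11 passed for NS rottlerin under NS DMSO (0.0438%), and after scaling each list by its median, 1 of 12 passed for SW rottlerin under NS DMSO (3.16%). Keeping peaks with q of 0.05 or less, keeping touching peaks apart, using every transcript's TSS or placing regions by mid-point moved no count by over 1.5 times. Counts at single members moved by more in 12 cases. Leaving out the NS DMSO list gives no count without its peaks.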
